A study of Oryzias latipes with 6 samples.

Results

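The 100 transcripts described here were selected on their own measured levels in medaka hearts, as those with the highest ratio of mean level in WT hearts carrying ATF6α(N) over WT hearts. The level is CPM, the deposited read estimate of a transcript per 1000000 estimated reads of its library. The 100 came from the 7837 transcripts whose mean over all 36 libraries was 10 CPM or more, of 37495 transcripts in the tables. All 100 also passed the low count filter of the fit used for testing, which kept 18076 transcripts. This ratio rested to a large part on 1 library of WT hearts carrying ATF6α(N). Without that library the median ratio was 1.30 in place of 1.92, and 36 of the 100 were chosen again. Between AXER-KO hearts with and without ATF6α(N), the 100 had a median log2 fold change of 0.03. The median standard error of these fold changes was 0.57. None of the 100 passed the test there, and none of all 18076 transcripts did. The authors reported altered genes in this comparison, as taken up below.

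ATF6α is a transmembrane sensor of the unfolded protein response. Upon ER stress it moves to the Golgi and is cleaved. Its cytosolic part, ATF6α(N), enters the nucleus and activates transcription of ER chaperone genes. XBP1(S) is the transcription factor made from spliced XBP1 mRNA in the IRE1 branch of the same response, and its targets overlap with those of ATF6α. Genes for ER-associated degradation need both factors in mammals. In medaka lacking AXER, the authors found these genes raised with XBP1(S) and not with ATF6α(N). That result came from quantitative RT-PCR at an earlier age, not from the libraries used here. AXER is a transporter that exchanges ATP and ADP across the ER membrane, and thereby supplies ER chaperones with ATP.

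Whole hearts at 5 dpf were sequenced from 6 genotypes with 6 libraries each, and no agent was given. [WT + ATF6α(N)] denotes AXER+/+, ATF6(N/+), [WT + XBP1(S)] denotes AXER+/+, XBP1(S/+), and WT denotes AXER+/+, whereas [KO + ATF6α(N)], [KO + XBP1(S)] and KO denote the same 3 states in AXER-/- medaka. Both active factors came from 1 edited copy at the endogenous locus in the whole animal, not in the heart alone, and the other copy was unedited. The AXER-/- allele is a small frameshift deletion in the whole animal. All genotypes came from crosses of AXER+/- parents. Libraries are numbered 1 to 6 by column order within a genotype, so a replicate number is a name and pairs nothing. Whether the 6 libraries of 1 genotype stem from different hearts or pools is not in the labels, so the tests see the spread between libraries only. The labels name the strain HdrR, whereas the methods name the strain cab. Hearts of this kind also hold nucleated erythrocytes, and fewer cells of a type cannot be told apart from less RNA per cell. The identifiers are Ensembl medaka transcripts, of which 0 matched a gene name in the reference table used here, so members are called by their rank in the ratio. Lists of ER chaperones, degradation genes and cell type markers could therefore not be read, and neither the labelled tissue nor the edited genes could be checked.

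In terms of the values that selected them, the 100 members had ratios of 1.69 to 3.46 with a median of 1.92. The members ranked 99 and 100 had ratios of 1.694 and 1.693, and the next transcripts outside had 1.689 and 1.688. The limit thus fell among transcripts of nearly equal ratio. Their mean level over the 36 libraries was 10.2 to 2930.3 CPM with a median of 20.1 CPM, close to the median of 24.2 CPM over the 7837, and 23 members were above 100 CPM. Without the [WT + ATF6α(N)] libraries, 5 members were below the minimum of 10 CPM, against 1.71% of the 7837. Leaving out [KO + ATF6α(N)], [KO + XBP1(S)] or KO put 2 members each below it, against 0.383%, 1.42% and 0.408% of the 7837.

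The ratio was carried to a large part by a single library, [WT + ATF6α(N)] replicate 2. Of the 100 members, 64 had their highest CPM of that genotype in replicate 2, whereas the other 5 libraries were highest for 2 to 10 members each. On library sizes normalized as described below, replicate 2 was highest for 65 members, against 20.1% of the 7837. For 42 members 1 library held more than 50% of the summed CPM of the genotype, and for 39 of these it was replicate 2. Over all members the top library held a median of 46.5% of that sum, against 16.7% for 6 equal libraries. Without replicate 2, the ratio to WT had a median of 1.30 and a range of 0.568 to 2.89, with 40 members above 1.5 and 18 below 1. When the 100 were chosen again without it, 36 members stayed, whereas 70 to 90 stayed when any other of the 12 choosing libraries was left out. On medians in place of means, the ratio had a median of 1.503 over the members, with 50 above 1.5 and 11 below 1. These are descriptions of the choice itself, and no test was applied to them.

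**Figure D1:**
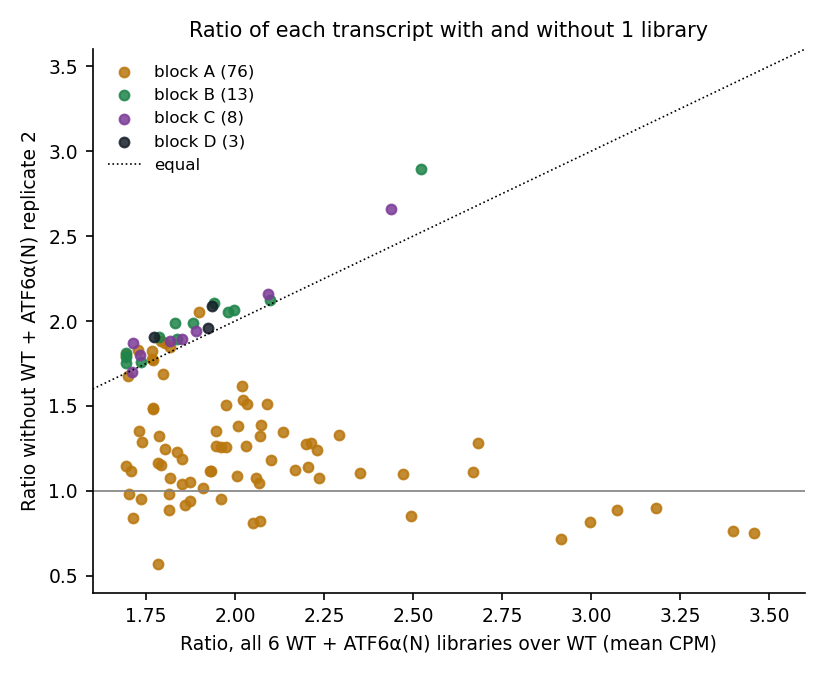
Ratio of each of the 100 transcripts, [WT + ATF6α(N)] over WT in mean CPM, with all 6 [WT + ATF6α(N)] libraries (x axis) and without replicate 2 (y axis), coloured by the blocks of pattern over libraries described in the text. The 2 members of highest ratio drop below the grey line at 1 without that library, whereas the 13 members of block B stay near or above the dotted line of equal values.

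The member ranked 1 shows what this means for a single transcript. It was at 142, 2058, 88.3, 81.0, 77.8 and 65.7 CPM in [WT + ATF6α(N)] hearts, against 206, 91.7, 153, 107.4, 56.1 and 112.9 CPM in WT hearts. All but replicate 2 of [WT + ATF6α(N)] lay within the WT range, and its ratio of 3.46 became 0.750 without that library. The member ranked 27, among the most abundant, was at 1746, 13470.1, 1567, 935, 874 and 1539.5 CPM in [WT + ATF6α(N)] hearts, against 1433, 2089.6, 1168, 1772, 943 and 2317 CPM in WT hearts. Its ratio of 2.07 became 0.822 without replicate 2.

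At the other end, 4 members, ranked 38, 50, 54 and 61, were higher in all 6 [WT + ATF6α(N)] libraries than in any WT library, against 0.281% of the 7837 whose libraries did not overlap in either direction. ENSORLT00000008621.2, ranked 38, was at 151, 119.1, 128, 180.3, 156 and 120.5 CPM in [WT + ATF6α(N)] hearts, against 73.3, 82.3, 86.1, 73.7, 53.5 and 58.7 CPM in WT hearts. Its ratio was 1.998 with replicate 2 and 2.06 without it. ENSORLT00000035457.1, ranked 50, was at 20.9, 17.4, 17.4, 18.0, 27.6 and 14.2 CPM in [WT + ATF6α(N)] hearts, against 7.79, 12.04, 13.5, 10.3, 12.7 and 3.82 CPM in WT hearts. Every library of the first genotype lay above every library of the second in CPM, although by a small margin for this transcript. The normalization factor described below was 1.05 for [WT + ATF6α(N)] replicate 6 and 0.87 for WT replicate 5. Divided by it, the WT library was the higher of the 2, so the genotypes overlapped for this transcript. In the fit over all transcripts, 2 members (ranked 38 and 61) were called higher in [WT + ATF6α(N)] than in WT hearts, and they were the only transcripts called (0.0111% of 18076). Called here and below means an adjusted p under 0.05 by the edgeR quasi-likelihood test and a fold change above 1.5. This contrast selected the members, so nothing is read from it.

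The high replicate 2 was not the only library of its kind. Each library can be summarized by the mean log2 CPM of the 100 members, on library sizes normalized by TMM, the trimmed mean of log ratios. This level was 5.03, 6.63, 4.90, 4.43, 4.21 and 5.09 in [WT + ATF6α(N)], 6.51, 4.56, 5.41, 5.08, 4.66 and 5.20 in [WT + XBP1(S)], and 4.06, 4.59, 4.43, 4.21, 4.59 and 4.61 in WT hearts. In AXER-/- medaka it was 5.29, 5.46, 4.96, 4.83, 4.96 and 4.98 in [KO + ATF6α(N)], 4.37, 5.15, 5.01, 4.72, 6.30 and 4.67 in [KO + XBP1(S)], and 5.52, 4.86, 4.95, 5.12, 4.64 and 4.77 in KO hearts. Hence 3 libraries of 3 different genotypes stood above 6, namely [WT + ATF6α(N)] replicate 2, [WT + XBP1(S)] replicate 1 and [KO + XBP1(S)] replicate 5, and KO replicate 1 was next. The mean level of all 7837 transcripts averaged 4.93 to 4.99 over the 6 genotypes on the same scale.

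**Figure D2:**
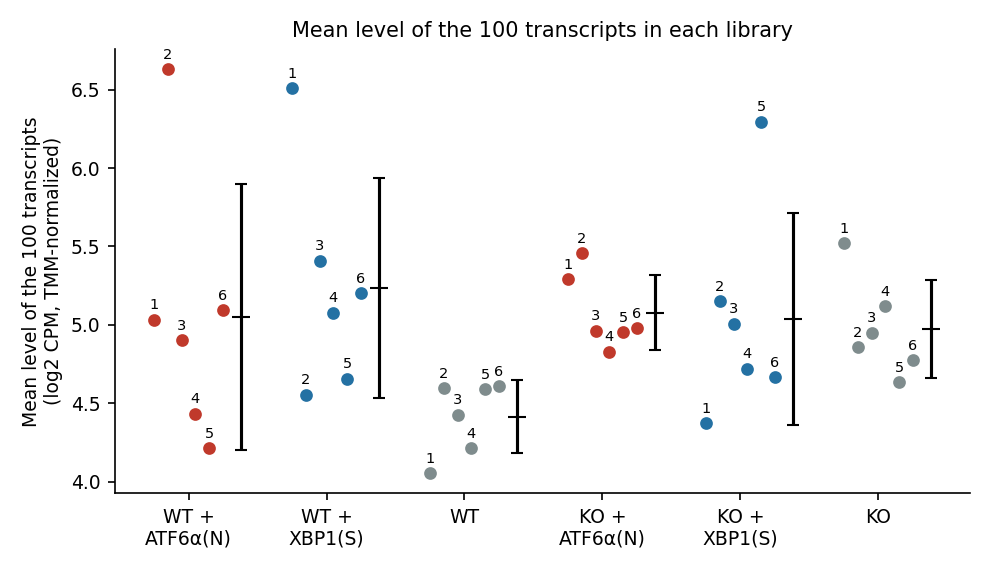
Mean log2 CPM of the 100 transcripts (TMM-normalized) in each of the 36 libraries, numbered within genotype, with the mean and SD of the 6 libraries in black. The 3 highest points, at 6.63, 6.51 and 6.30, belong to 3 different genotypes, and the 6 KO libraries lie above the 6 WT libraries.

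In these 3 libraries the members took 6.97%, 5.80% and 8.61% of all estimated reads, whereas in the other 5 [WT + ATF6α(N)] libraries they took 0.677 to 1.45% and in WT libraries 0.720 to 1.41%. The 3 did not share a depth, at 6381016, 11027825 and 2834587 estimated reads, within the range of 1850805 to 19619140 over all libraries. Their TMM factors were 0.93, 0.77 and 0.98. Of the 100 members, 67 had their highest value of all 36 libraries in one of the 3, namely 30 in [WT + XBP1(S)] replicate 1, 20 in [KO + XBP1(S)] replicate 5 and 17 in [WT + ATF6α(N)] replicate 2. The choice on the mean of [WT + ATF6α(N)] by itself favours the last of these counts. Within genotype, [WT + XBP1(S)] replicate 1 was the highest library for 70 members and [KO + XBP1(S)] replicate 5 for 69, against 18.1% and 19.5% of the 7837. These 2 libraries entered the choice only through the minimum of 10 CPM. KO replicate 1 was the highest KO library for 57 members, against 14.9% of the 7837.

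Members were also more variable than other transcripts in libraries outside the choice. Over the 24 libraries that did not enter the ratio, the SD within genotype of log2 CPM had a median of 0.885 over the members and 0.399 over the 7837. Of the 100 members, 95 exceeded that median of all and 76 exceeded the 90th percentile of all, which 10% of the 7837 exceed by construction. Estimates that were not whole numbers, as salmon gives for reads shared between transcripts, made up 9.11% of the members' values and 7.32% of those of the 7837.

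When the members were grouped by how they varied over those 24 libraries (average linkage on correlation, with the number of 4 blocks chosen after the data were seen), most fell into 1 block. Block A held 76 members with a median pair correlation of 0.61 over the 24 libraries. With each genotype centred it was 0.66, and 0.43 when [WT + XBP1(S)] replicate 1 and [KO + XBP1(S)] replicate 5 were also left out, which leaves 22 libraries. The block was formed on these same libraries, so its correlations are a description of the grouping and no test. The mean log2 CPM of block A was 5.16, 7.33, 5.03, 4.43, 4.34 and 5.21 in [WT + ATF6α(N)] hearts, against 4.47, 4.80, 4.66, 4.46, 4.77 and 4.97 in WT hearts. Without replicate 2 its members had a median ratio of 1.19. The same block reached 7.31 in [WT + XBP1(S)] replicate 1, 7.06 in [KO + XBP1(S)] replicate 5 and 6.04 in KO replicate 1. Its pattern was not restricted to members, since 199 of the 7837 transcripts (2.54%) had a correlation above 0.8 with the mean of block A over the 24 libraries, of which 153 were not members. Those 153 had a median ratio of 1.34 and a median rank of 641 in the ratio.

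Block B held 13 members, ranked 9, 23, 38, 39, 46, 54, 61, 63, 74, 86, 96, 97 and 100. Its mean log2 CPM was 4.86, 4.46, 4.85, 4.77, 4.40 and 4.59 in [WT + ATF6α(N)] hearts, against 2.96, 4.26, 4.03, 3.85, 4.04 and 3.30 in WT hearts. Each [WT + ATF6α(N)] library lay above each WT library in this selecting contrast, and the median ratio was 1.84 with replicate 2 and 1.99 without it. In AXER-/- medaka the level of block B was 5.28, 5.00, 4.95, 4.73, 4.95 and 4.97 in [KO + ATF6α(N)] hearts, against 4.79, 5.16, 4.74, 4.65, 4.83 and 4.98 in KO hearts, which overlapped. A typical pair of block B members did not vary together beyond genotype, with a median pair correlation of 0.07 once each genotype was centred. The members ranked 38 and 61 had a correlation of 0.99 over the 36 libraries. That value was not centred, so it includes the differences between genotypes and cannot be set against 0.07. Block C held 8 members, ranked 12, 24, 53, 60, 66, 87, 91 and 92, with a median SD within genotype of 1.06 on the log2 scale. Block D held the 3 members ranked 47, 50 and 78.

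**Figure D3:**
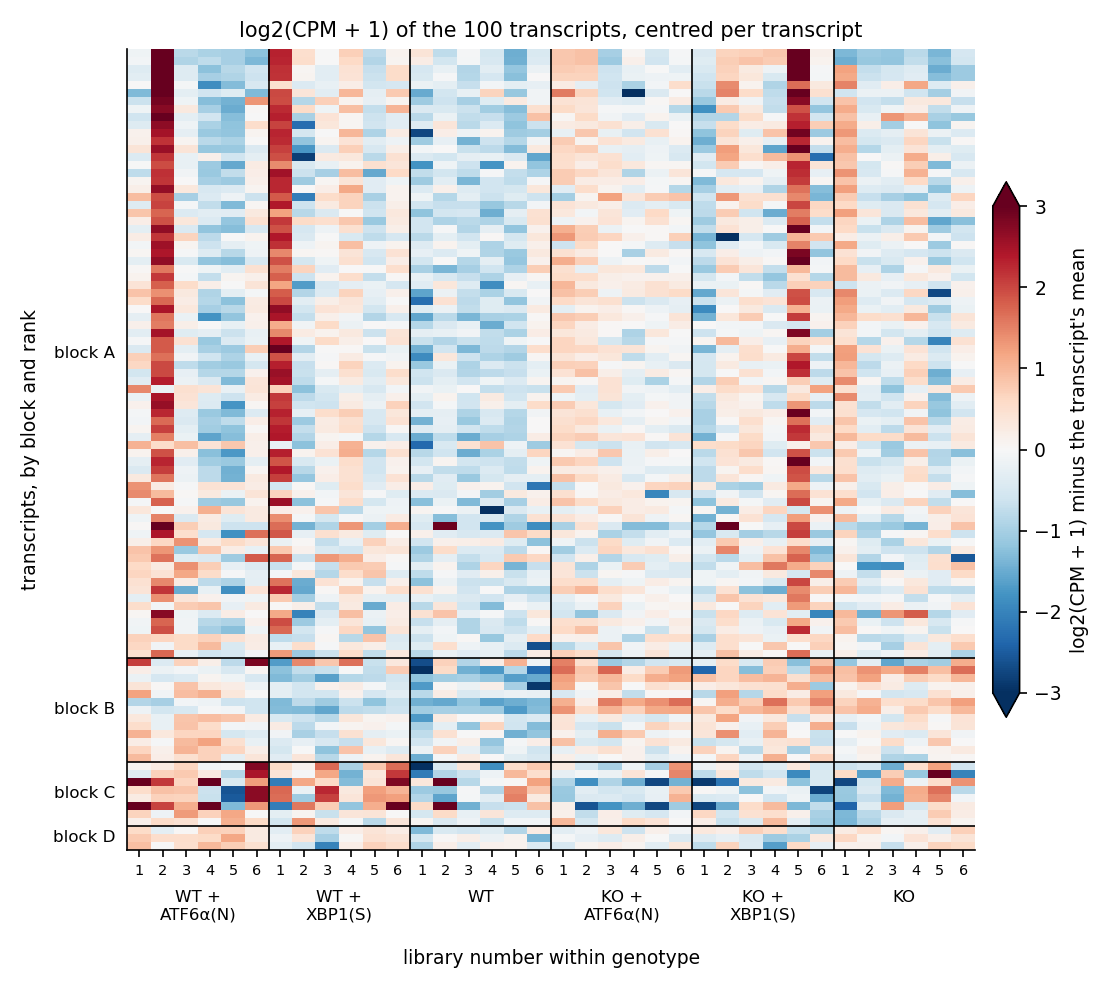
log2(CPM + 1) of the 100 transcripts (down the page, by block and rank) in 36 libraries (across, by genotype and number), each transcript centred on its own mean, in units of log2 and with colour saturating at 3. Block A is dark red in [WT + ATF6α(N)] library 2, [WT + XBP1(S)] library 1 and [KO + XBP1(S)] library 5, and the red band in block B spans AXER-/- libraries.

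Whether ATF6α(N) also raised the members in hearts without AXER was asked with [KO + ATF6α(N)] and KO hearts, 12 libraries that entered the choice only through the minimum of 10 CPM. The mean level of the members was 5.08 ± 0.24 in [KO + ATF6α(N)] hearts and 4.98 ± 0.31 in KO hearts (log2 CPM, SD, n = 6 each), a difference of 0.10 with a standard error (SE) of 0.16. No [KO + ATF6α(N)] library lay above all KO libraries. In the fit, the members' log2 fold changes had a median of 0.03 and quartiles of -0.12 and 0.23, against a median of 0.00 over the 7837. Of the 100 members 56 were above 0, against 50.3% of the 7837. No member was called by edgeR's quasi-likelihood test, and no transcript was called in this comparison (0.0% of 18076). DESeq2 and limma-voom called none either. At an unadjusted p under 0.05 there were 2 members, of which 1 was higher and 1 lower (2.54% of the 7837). In CPM, without TMM, the libraries of the 2 genotypes did not overlap for 1 member, against 0.179% of the 7837. The median standard error of the log2 fold change was 0.57 for members and 0.22 for the 7837, so for a typical member a change as large as the median of 0.94 in WT hearts would lie within 2 SE of 0. The median did not depend on rank, at 0.03, 0.06, 0.00 and 0.05 from the first to the last 25 members.

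Leaving out KO replicate 1, the highest KO library, moved the median to 0.25 and the share of members above 0 to 75%, without a call. Leaving out [KO + ATF6α(N)] replicate 2, the highest library of its genotype, moved them to -0.04 and 47%, also without a call. Over the 7837 transcripts, the log2 fold changes of ATF6α(N) in WT and in KO hearts had a correlation of -0.04 across transcripts, which are not independent replicates. The 2 contrasts share no library.

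**Figure D4:**
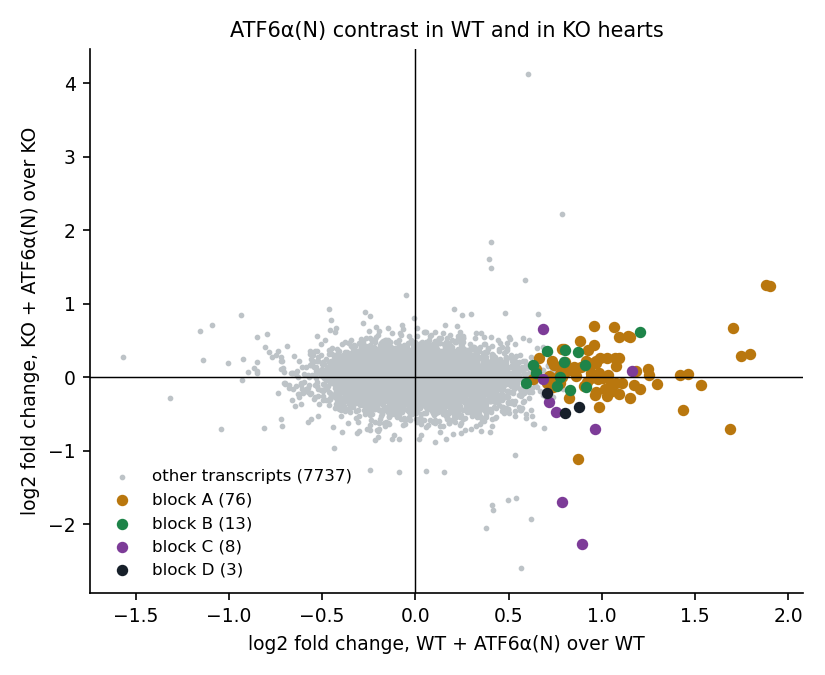
log2 fold change of each of the 7837 transcripts between [WT + ATF6α(N)] and WT hearts (x axis, the contrast that selected the members) and between [KO + ATF6α(N)] and KO hearts (y axis), with members coloured by block. Members lie far right by selection and spread around 0 on the y axis, with a median of 0.03.

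The members of block B also showed small values in KO hearts, with 8 of 13 above 0, a median log2 fold change of 0.17 and a median standard error of 0.27. Of these 13, the members ranked 23 and 86 reached the 10 CPM minimum only with their [KO + ATF6α(N)] libraries. For rank 23 the KO libraries were needed as well. The values of these members were thus in part built into the choice. ENSORLT00000008621.2 (rank 38) was at 400.3, 290.3, 335, 253, 360.3 and 393 CPM in [KO + ATF6α(N)] hearts, against 306, 391, 196, 285, 254 and 342 CPM in KO hearts. The 2 genotypes overlapped, and the log2 fold change was 0.17 (SE 0.14, adjusted p = 1.00 by the edgeR quasi-likelihood test). Both were far above the WT level of 71.3 ± 12.9 CPM (SD, n = 6). The member ranked 61 followed it closely over the 36 libraries (correlation 0.99), with a log2 fold change of 0.21 (SE 0.14) in KO hearts. Whether both belong to 1 gene was not tested.

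The member ranked 54 was the one higher at an unadjusted p under 0.05. It was at 914, 497, 1257, 949.7, 1129 and 1376 CPM in [KO + ATF6α(N)] hearts, against 682, 893, 614, 636, 770.2 and 1016 CPM in KO hearts. The genotypes overlapped, with [KO + ATF6α(N)] replicate 2 the lowest of all 12 libraries, and the log2 fold change was 0.36 (SE 0.18, unadjusted p = 0.0496 and adjusted p = 1.00 by the edgeR quasi-likelihood test).

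The member whose libraries did not overlap, ranked 34, was at 26.4, 15.9, 14.2, 15.4, 17.9 and 15.7 CPM in [KO + ATF6α(N)] hearts, against 7.96, 11.2, 11.9, 10.6, 8.17 and 14.0 CPM in KO hearts. The lowest library of the first lay just above the highest of the second in CPM. The TMM factor was 1.05 for [KO + ATF6α(N)] replicate 3 and 0.80 for KO replicate 3. Divided by it, the KO library was the higher of the 2, so the genotypes overlapped. Its log2 fold change was 0.69 (SE 0.39, adjusted p = 1.00 by the edgeR quasi-likelihood test). It was at 21.2 ± 12.7 CPM in [WT + ATF6α(N)] hearts and 10.5 ± 4.58 CPM in WT hearts (SD, n = 6 each), with a ratio of 2.02 that became 1.54 without replicate 2.

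The largest log2 fold changes of members in KO hearts were those of the members ranked 1 and 2, whose levels were nearly the same in every library (correlation above 0.99). Rank 1 was at 274, 288, 78.2, 164, 108 and 151 CPM in [KO + ATF6α(N)] hearts, against 60.5, 72.3, 69.7, 88.8, 59.5 and 109 CPM in KO hearts. All [KO + ATF6α(N)] libraries but replicate 3 lay near or above the top of the KO range, but the log2 fold change of 1.24 had an SE of 0.88 and an adjusted p of 1.00 by the edgeR quasi-likelihood test in a fit that takes the spread from all 36 libraries. Members ranked 3 and 4 and members ranked 27 and 31 were alike in the same way.

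The lowest values in KO hearts belonged to block C. ENSORLT00000018637.2, ranked 53, was at 3.71, 1.48, 3.70, 2.20, 0.328 and 2.30 CPM in [KO + ATF6α(N)] hearts, against 0.336, 5.10, 18.1, 6.90, 11.7 and 21.5 CPM in KO hearts. Apart from KO replicate 1, every KO library lay above every [KO + ATF6α(N)] library, and the log2 fold change was -2.27 (SE 0.95, unadjusted p = 0.0231 and adjusted p = 1.00 by the edgeR quasi-likelihood test). In WT hearts the order was the opposite on the mean, at 106.7, 37.5, 12.8, 77.7, 5.49 and 20.1 CPM in [WT + ATF6α(N)], against 10.3, 88.4, 3.95, 7.53, 8.04 and 19.5 CPM in WT hearts, with overlapping libraries. ENSORLT00000018649.2, ranked 87, varied with it (correlation 0.95 over 36 libraries) and averaged 7.42 ± 7.15 CPM in [KO + ATF6α(N)] hearts and 20.7 ± 14.7 CPM in KO hearts (SD, n = 6 each). The fit gave a log2 fold change of -1.69 (SE 0.95). ENSORLT00000035457.1 (rank 50), which in CPM did not overlap in WT hearts, was at 11.1, 9.69, 8.69, 13.4, 11.6 and 8.40 CPM in [KO + ATF6α(N)] hearts, against 18.6, 12.7, 10.9, 15.8, 13.2 and 15.6 CPM in KO hearts. Of the [KO + ATF6α(N)] libraries 3 lay below the KO range, and the log2 fold change of -0.48 (SE 0.25, adjusted p = 1.00 by the edgeR quasi-likelihood test) ran against its selection.

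**Figure D5:**
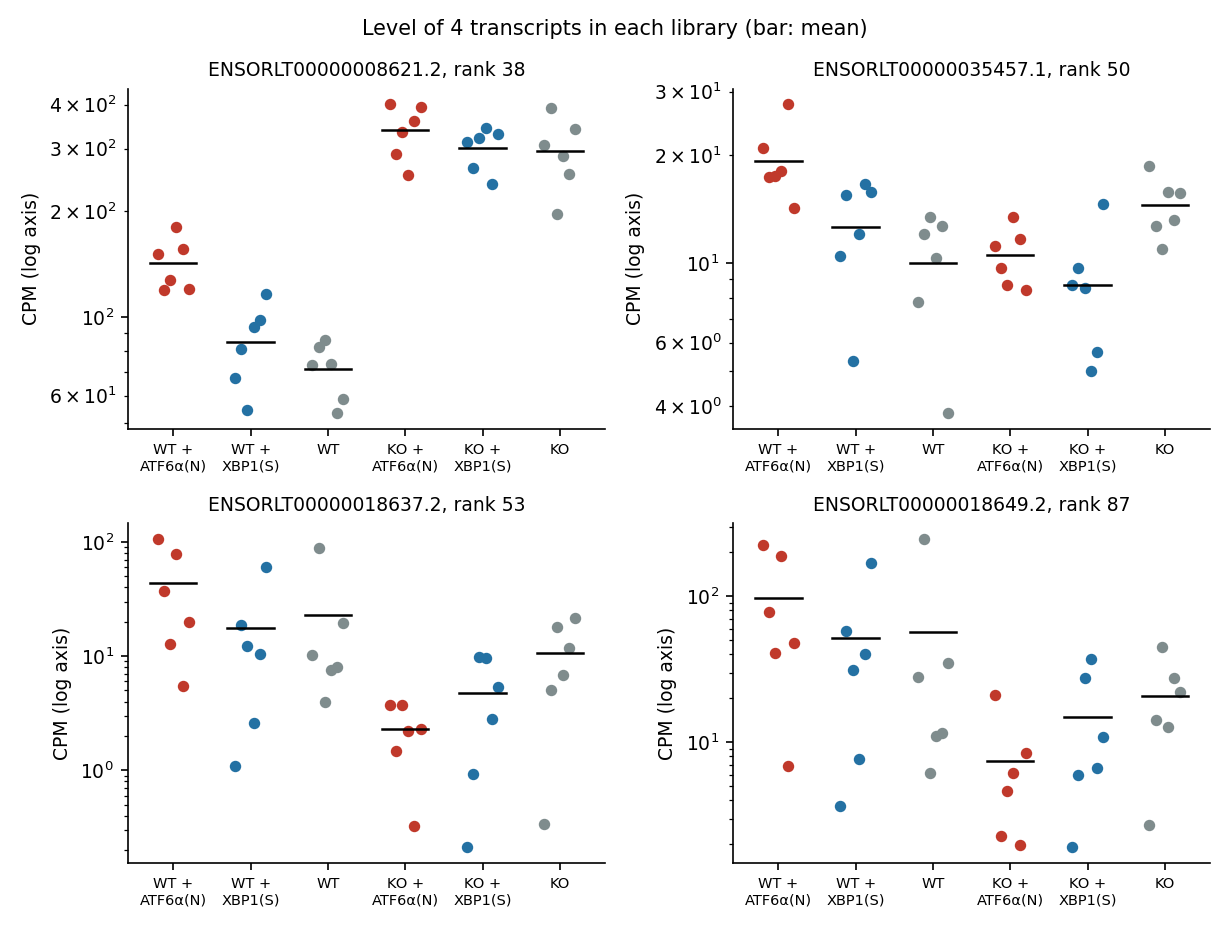
CPM of 4 members in each library (log axis), 6 points per genotype, with the mean as a bar. ENSORLT00000008621.2 lies between 196 and 400.3 CPM in the KO and [KO + ATF6α(N)] genotypes and at 71.3 CPM on average in WT, ENSORLT00000035457.1 is higher in every [WT + ATF6α(N)] library than in any WT library in CPM without TMM, and ENSORLT00000018637.2 and ENSORLT00000018649.2 spread widely within each genotype.

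To follow the members with the other factor, [KO + XBP1(S)] hearts were compared with KO hearts. The mean level of the members was 5.04 ± 0.67 in [KO + XBP1(S)] hearts and 4.98 ± 0.31 in KO hearts (log2 CPM, SD, n = 6 each), a difference of 0.06 with a standard error of 0.30. Members had a median log2 fold change of 0.19, against -0.04 over the 7837, and 67 were above 0, against 44.4% of the 7837. This direction rested on [KO + XBP1(S)] replicate 5. Without it the median was -0.28 and 35% of members were above 0. No member was called by edgeR's quasi-likelihood test (0.177% of 18076 were called). At an unadjusted p under 0.05, 9 members were found, of which 6 were higher and 3 lower, against 9.9% of the 7837. The libraries did not overlap for the members ranked 1 and 2, both higher, against 1.21% of the 7837. DESeq2 called 1 member higher, ranked 76, and limma-voom called 1 lower, ranked 23 (0.514% and 0.188% of 18076 were called by these tools). Each of the 2 passed the 10 CPM minimum through a genotype compared here, as rank 76 averaged 6.33 CPM without the [KO + XBP1(S)] libraries and rank 23 averaged 8.74 CPM without the KO libraries. Nothing is read from these calls.

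The member ranked 76 was at 1.69, 226, 3.82, 3.08, 18.3 and 3.24 CPM in [KO + XBP1(S)] hearts, against 1.79, 1.38, 1.25, 0.862, 4.61 and 7.82 CPM in KO hearts. A single library, replicate 2, stood apart, and the log2 fold change was 3.84 (SE 1.21, adjusted p = 0.26 by the edgeR quasi-likelihood test). The member ranked 1 was at 114, 249.9, 255, 276, 3924 and 173 CPM in [KO + XBP1(S)] hearts, above the KO range of 59.5 to 109 CPM in each library. Its log2 fold change of 3.38 (SE 0.94, adjusted p = 0.199 by the edgeR quasi-likelihood test) came with replicate 5 far above the other 5 libraries.

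The member ranked 23 was at 0.634, 12.5, 2.55, 13.1, 3.88 and 20.5 CPM in [KO + XBP1(S)] hearts, against 14.9, 20.8, 17.8, 23.3, 15.1 and 26.4 CPM in KO hearts. All [KO + XBP1(S)] libraries but replicate 6 lay below the KO range, and the log2 fold change was -1.41 (SE 0.50, adjusted p = 0.351 by the edgeR quasi-likelihood test). It was at 18.5 ± 7.48 CPM in [KO + ATF6α(N)] hearts (SD, n = 6), where the log2 fold change over KO was -0.13 (SE 0.46). ENSORLT00000008621.2 stayed at 302 ± 41.0 CPM in [KO + XBP1(S)] hearts and 296 ± 68.0 CPM in KO hearts (SD, n = 6 each), with a log2 fold change of -0.12 (SE 0.14).

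The direct comparison of the active factors in KO hearts used [KO + ATF6α(N)] over [KO + XBP1(S)]. It shares libraries with both comparisons above. The members had a median log2 fold change of -0.22 and 32 were above 0, against 54.4% of the 7837, and none was called by edgeR's quasi-likelihood test (0.166% of 18076). At an unadjusted p under 0.05 there were 6 members, 3 in each direction, against 10.2% of the 7837. Without [KO + XBP1(S)] replicate 5 the direction turned, with a median of 0.33 and 70% above 0. The members ranked 38 and 61 had log2 fold changes of 0.29 and 0.30 (SE 0.14 each), with adjusted p of 0.628 and 0.606 by the edgeR quasi-likelihood test. The member ranked 23 had 1.28 (SE 0.50, adjusted p = 0.529 by the same edgeR test). It averaged 8.99 CPM without the [KO + ATF6α(N)] libraries, below the 10 CPM minimum, so this value was in part built into the choice.

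The remaining comparisons share the WT libraries with the choice. The choice itself favours transcripts that are low in WT libraries, so the values below are descriptions. For [WT + XBP1(S)] over WT hearts, members had a median log2 fold change of 1.18, with 99 of 100 above 0, against 51.9% of the 7837. None was called by edgeR's quasi-likelihood test (0.597% of 18076), 47 had an unadjusted p under 0.05, against 10.7% of the 7837, and DESeq2 called 3, against 0.841% of 18076. The mean level of the members was 5.24 ± 0.70 in [WT + XBP1(S)] hearts and 4.41 ± 0.23 in WT hearts (log2 CPM, SD, n = 6 each), and 5 of 6 [WT + XBP1(S)] libraries lay above all WT libraries.

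For KO over WT hearts, members had a median log2 fold change of 0.54, with 91 of 100 above 0, against 51.7% of the 7837. The mean level of the members was 4.98 ± 0.31 in KO hearts and 4.41 ± 0.23 in WT hearts (log2 CPM, SD, n = 6 each), and all 6 KO libraries lay above all WT libraries. Of the 100 members, 4 were called higher and none lower (0.642% of 18076 were called), ranked 23, 38, 54 and 61, all of block B. Each of the 4 was higher in every KO library than in any WT library, against 2.48% of the 7837 whose libraries did not overlap in either direction. DESeq2 and limma-voom called 5 members each, the same 4 and the member ranked 47 of block D (0.913% and 0.769% of 18076 were called). The members ranked 23 and 47 reached the 10 CPM minimum only with their KO libraries, so their rise was in part built into the choice. ENSORLT00000008621.2 had a log2 fold change of 2.19 (SE 0.14, adjusted p = 1.68e-14 by the edgeR quasi-likelihood test). The member ranked 54 averaged 769 ± 159 CPM in KO hearts and 161 ± 17.6 CPM in WT hearts (SD, n = 6 each), with 2.37 as its log2 fold change (SE 0.19, adjusted p = 5.94e-12 by the same edgeR test). In [WT + ATF6α(N)] hearts the members ranked 38 and 54 were at 142 ± 24.2 and 302 ± 78.8 CPM (SD, n = 6), between their WT and KO levels.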

How the data were processed

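The authors prepared Lasy-Seq libraries from heart RNA, trimmed reads with fastp 0.21.0, mapped them with BWA 0.7.17-r1188 and quantified transcripts with salmon, and they deposited estimated counts per transcript. Their notes name a mouse build, whereas the identifiers are of medaka. Non-whole values made up 1.88% of the deposited estimated counts (tolerance 1e-06), and all were rounded for testing. Depth was 1850805 to 19619140 estimated reads per library, which limits the precision of low transcripts. In R 4.3.3, edgeR 4.0.16 was run with filterByExpr, TMM and a robust quasi-likelihood fit with 1 mean per genotype over all 36 libraries. P-values were adjusted (Benjamini-Hochberg) over 18076 transcripts, and called under 0.05 with a fold of over 1.5. SEs follow from each log2 fold change and F statistic. Levels are log2 CPM with a prior count of 2. The fit was tested on simulated data. Alternatives were DESeq2 1.42.0, limma-voom (limma 3.58.1), other size factors, no filter, fewer groups, each library left out and other forms of the ratio. Members and lists were chosen with earlier results of these data known. Identifiers printed are the 2 of highest ratio among members that do not overlap in WT hearts in CPM and the 2 lowest in KO hearts. The others are given by rank, and those singled out were picked with their values in view. The gene lists could not be used without names.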

Additional observations from a re-analysis of the deposited data

Results flagged for a closer look

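In [WT + ATF6α(N)] hearts, the mean level of the 100 members in replicate 2 (6.63 log2 CPM) stood far from the other 5 libraries, of which the highest was at 5.09. The members were chosen on the mean of these 6 libraries, which favours transcripts with 1 very high library there, so this gap describes the choice and no chance rate applies to it. Outside the choosing libraries, 19 members had a library set apart in the same way in [KO + XBP1(S)], against 7.59% of the 7837 transcripts. In [WT + XBP1(S)] 15 members had one, against 9.49%. In KO 4 had one, against 6.47%, and in [KO + ATF6α(N)] 2 had one, against 6.05%. For ENSORLT00000018637.2, [KO + ATF6α(N)] replicate 5 was flagged at the low end, at 0.328 CPM, where the other 5 were at 1.48 to 3.71 CPM. In a library of 6102920 estimated reads this value is near the floor. In CPM its gap to the next library was smaller than the spread of the other 5, so little rests on this flag. Chance sets a library apart in about 1 in 20 groups of this size when the group is not picked for its values. ENSORLT00000018637.2 was singled out for its low values in [KO + ATF6α(N)] hearts, so that rate does not apply to it.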

How the results depend on the processing

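No paired analysis was possible because the library columns carry no replicate numbers in the labels. For ATF6α(N) in KO hearts, no alternative gave a called member. With 1 library left out in turn, choosing libraries included, its median log2 fold change was -0.08 to 0.25 and the share of members above 0 was 44 to 75%, and the other 14 alternatives gave -0.06 to 0.25 and 42 to 75%. For XBP1(S) in KO hearts, the libraries left out were those of the 2 genotypes compared and the choosing libraries. They gave a median of -0.28 to 0.38, a share of 35 to 79% and 0 called members. For ATF6α(N) over XBP1(S) in KO hearts, libraries left out likewise gave -0.31 to 0.33, 24 to 70% and 0 called members. For XBP1(S) in KO hearts, DESeq2, limma-voom and members chosen on the ratio of median CPM gave 1 called member each, and without the 2 high libraries ([KO + XBP1(S)] replicate 5 and KO replicate 1, chosen after the data were seen) 44% were above 0. For ATF6α(N) over XBP1(S), DESeq2 called 1 member lower, ranked 76 (0.409% of 18076 were called). That member averaged 6.33 CPM without the [KO + XBP1(S)] libraries, below the 10 CPM minimum, so nothing is read from this call. In the same comparison limma-voom put 55% above 0, and without the 2 high libraries the median was 0.33 with 70% above 0. For XBP1(S) in WT hearts DESeq2 called 3 members. The cause of the differences between tools was not tested. Other forms of the ratio shared 2 (mean of at least 1 CPM), 31 (at least 50 CPM), 37 (medians), 89 (TMM-normalized) and 93 (level over the 12 choosing libraries) of 100 members.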
